A study of Homo sapiens with 4 samples.

Results

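The genes described are 37 that handle foreign compounds and oxidants: drug efflux pumps, targets of the transcription factor NRF2, oxidising and conjugating enzymes, and enzymes that activate or break down pyrimidine drugs. They were chosen by gene symbol, and each is represented by the probe set with the highest mean over all arrays. Of the 37, 36 had a probe set naming that gene alone, among 18417 genes so represented, and CYP2C18 was not analysed here. A signal minimum was set at the 30th percentile of all probe set means, 5.64 on the log2 scale. Above it lay 31 of the 36 members and 14547 genes in all, and these were tested. The 5 members below it, ABCB1, GSTA1, CYP1A1, ADH1C and DPYD, are given by their levels only.

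The samples came from SNU-16, a human gastric carcinoma cell line, grown as tumours in BALB/c nude mice, which lack mature T cells but keep other immune cells. In round 1 the parental line was placed in the stomach wall, and the tumour at that site (stomach, round 1) and a metastasis in the ovaries (ovary, round 1) were taken. Cells from each were cultured and placed in the stomach wall again, which gave a stomach tumour of the stomach-derived cells (stomach, round 2) and an ovarian metastasis of the ovary-derived cells (ovary, round 2). Each of these 4 combinations has 1 array, no untreated parental culture is among them, and the titles were followed where descriptions of the round 2 samples name the other organ. Per the labels, both round 2 samples descend from the round 1 sample of the same site, so the error of a site difference is the spread between rounds within a site, and that of a round difference is the spread between sites within a round. Both may be partly technical. RNA came from pelleted cells after tumours were dissociated; the labels do not say how many mice contributed to a sample. If the round 2 labels were exchanged, the site difference of a gene would become the interaction of site and round with its sign reversed. For the 3 members furthest apart between sites in both rounds that interaction was 0.21 ± 0.42 (CDA), 0.081 ± 0.41 (FMO5) and 0.0093 ± 0.33 (ABCC4), so their site differences depend on the titles being right.

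NRF2 is held by KEAP1 in the cytoplasm and degraded until oxidants or electrophiles modify KEAP1. It then pairs with small MAF proteins and binds antioxidant response elements near genes for glutathione synthesis, thioredoxin recycling, quinone reduction and drug export. The aryl hydrocarbon receptor AHR works in parallel on xenobiotic response elements near the CYP1 genes. In the gut epithelium these systems form a barrier in which compounds are oxidised, conjugated and pumped out, and in gastric cancer the pyrimidine enzymes handle fluoropyrimidines.

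On the arrays, 7 of 7 epithelial markers lay above the signal minimum, with means from 9.88 to 12.52. Among 10 leukocyte markers, PTPRC, FCER1G, AIF1 and CD3E lay below it, as did DCN, LUM and PDGFRA of 7 fibroblast markers, and PECAM1, KDR and TEK of 6 endothelial markers. The other 6 leukocyte markers lay above it, CD68 highest at a mean of 9.75, as did 4 fibroblast and 3 endothelial markers. So did 5 of 8 ovarian markers, ZP3 highest at 8.71, and 4 of 4 mesothelial markers measured, MSLN highest at 7.68. The summed ovarian signal on the log2 scale was 10.13 and 9.79 in stomach and 10.14 and 9.84 in ovary, and the mesothelial 8.68 and 8.90 in stomach and 8.98 and 8.84 in ovary. The array reports human transcripts, and how far mouse RNA was read by it was not tested. In bulk RNA, fewer cells of a type and less RNA per cell cannot be told apart. All differences are in log2 units and are signed so that positive means higher in ovary, or higher in round 2; a mean ± SD is over the n = 2 arrays of a site or round, and a fitted difference carries limma's standard error.

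Between sites, the members that stood furthest apart were cytidine deaminase, CDA, and the monooxygenase FMO5, both lower in ovary in each round, while the efflux pump ABCC4 was higher in ovary in each round. Between rounds, 8 members differed by at least 0.3 in the same direction at both sites: ABCC2, FMO5 and CYP3A5 were higher in round 2, and ABCC4, ABCG2, AKR1C1, AKR1C2 and CYP1B1 were lower. For AKR1C1 this holds for the probe set used, while its other probe set was higher in round 2, by 0.16 in stomach and 0.25 in ovary. No member passed the test across all genes in any comparison, in which limma called 0.0% of the 14547 genes (Benjamini-Hochberg adjusted p, two-sided). The smallest adjusted p among members was 1 between sites, 0.287 between rounds and 1 for the interaction.

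For the sites, 3 of 31 members met the rule of at least 0.3 in the same direction in both rounds, 1 higher and 2 lower in ovary, against 1.51% of all genes tested (0.804% higher and 0.708% lower). For the rounds, 8 of 31 did, 3 higher and 5 lower in round 2, against 4.85% of all genes tested (2.9% higher and 1.95% lower). AKR1C1 and AKR1C2 are counted separately there, though a probe set of either may read both. The members were chosen with earlier results of these data known, so that choice may have raised their shares over those of all genes. At an unadjusted limma p under 0.05 there were 2 members between sites (2.6% of all genes), 11 between rounds (15.0%) and 1 for the interaction (1.33%). Arrays of the 2 sites did not overlap in 8 members, against 24.6% of all genes, and arrays of the 2 rounds did not overlap in 18, against 49.0%. Over the 4 arrays, 10 members spanned at least 0.5 log2 units (12.3% of all genes), with a median range of 0.32 against 0.26. The members had no common direction: 16 of 31 were higher in ovary (50.6% of all genes) and 16 of 31 were higher in round 2 (45.4%). Their median difference was 0.017 between sites and 0.0034 between rounds, beside 0.0016 and -0.019 over all genes tested.

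**Figure D1:**
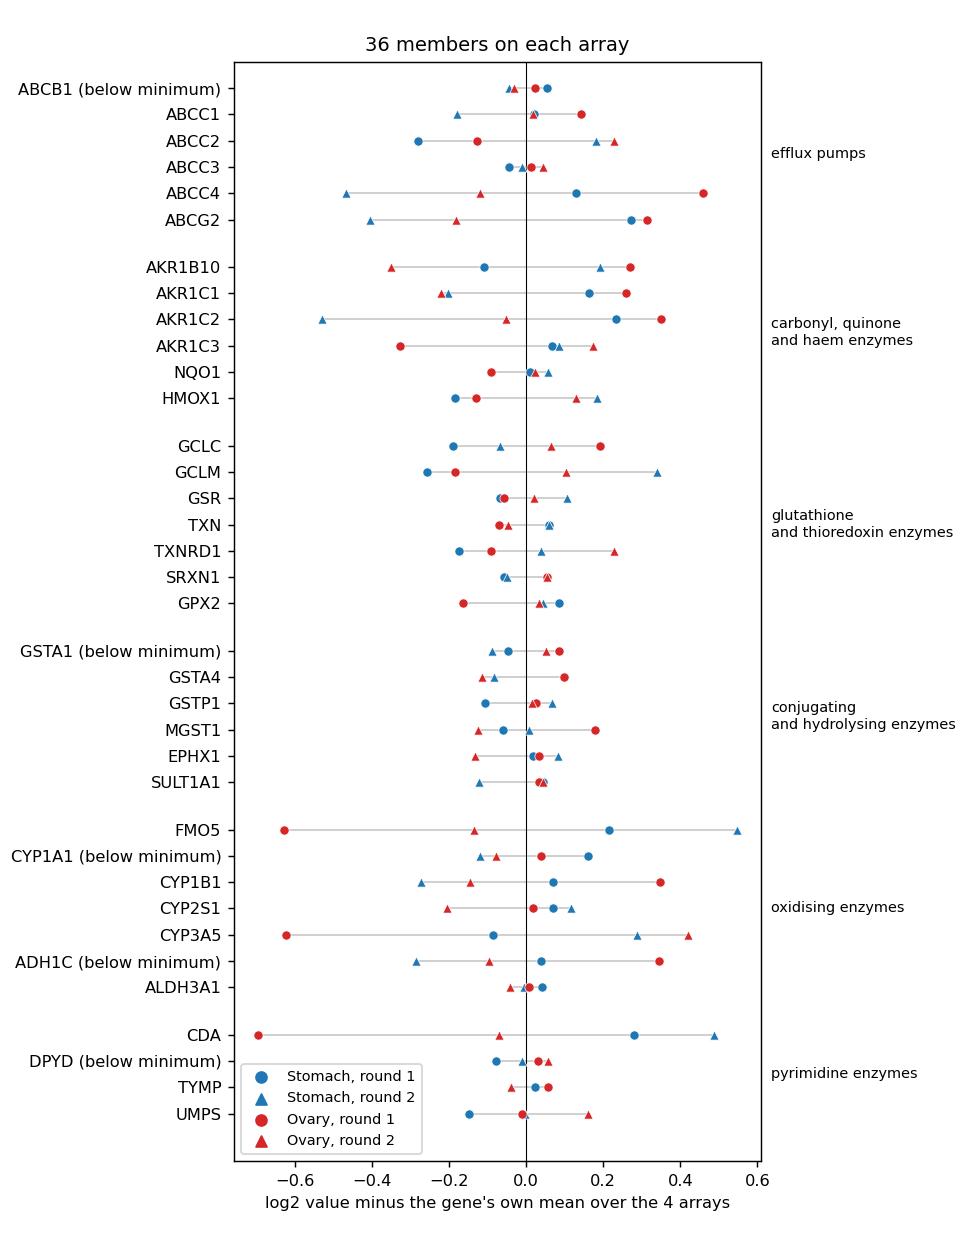
Each row is a member and each point an array, placed by its log2 value minus the gene's own mean over the 4 arrays; colour gives the site and shape the round. CDA, FMO5 and CYP3A5 spread over at least 1.04 log2 units, whereas ALDH3A1, ABCC3 and TYMP spread over 0.084, 0.086 and 0.097.

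CDA deaminates cytidine and the drug gemcitabine. Its level was 9.68 in stomach round 1, 9.88 in stomach round 2, 8.70 in ovary round 1 and 9.33 in ovary round 2. Both ovary arrays lay below both stomach arrays, and the round 1 ovary array was the lowest. The mean was 9.78 ± 0.15 in stomach and 9.01 ± 0.44 in ovary, a fitted difference of -0.77 ± 0.23, or 1.7-fold lower in ovary (limma adjusted p = 1). Within rounds the difference was -0.97 and -0.56, and without the round 1 ovary array the fitted value was -0.45. By size of the site difference CDA ranked 43 of 14547 genes and FMO5 ranked 44.

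FMO5 adds oxygen to carbonyl compounds in a Baeyer-Villiger type of reaction. It stood at 9.04 and 9.37 in stomach of rounds 1 and 2 and at 8.20 and 8.69 in ovary. As for CDA, the ovary arrays lay below the stomach arrays without overlap. The fitted site difference was -0.76 ± 0.21 (limma adjusted p = 1), with -0.84 in round 1 and -0.68 in round 2. FMO5 was also higher in round 2 by 0.33 in stomach and 0.49 in ovary, a fitted 0.41 ± 0.36 (limma adjusted p = 0.593). Without the round 1 ovary array the fitted round difference was -0.010. That fit sets both round 2 arrays against stomach round 1 alone, so it also carries the lower level of FMO5 in ovary. With the round as a replicate block, the adjusted p for the site was 0.654 for FMO5 and 0.655 for CDA.

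The 250 bases before the start sites of both genes are shown because these members stood furthest apart between sites. They are RefSeq sequences of GRCh38.p14, CDA on the plus strand at chr1:20588847-20589096 and FMO5 on the minus strand at chr1:147225340-147225589. Capitals would mark the core of an antioxidant response element, TGACNNNGC, or of a xenobiotic response element, GCGTG, on either strand. Neither stretch holds one.
CDA: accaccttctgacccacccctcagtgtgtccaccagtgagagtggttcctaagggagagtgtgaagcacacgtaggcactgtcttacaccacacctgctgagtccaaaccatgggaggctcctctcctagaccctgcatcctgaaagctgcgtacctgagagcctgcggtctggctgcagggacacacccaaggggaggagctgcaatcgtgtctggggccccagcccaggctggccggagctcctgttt
FMO5: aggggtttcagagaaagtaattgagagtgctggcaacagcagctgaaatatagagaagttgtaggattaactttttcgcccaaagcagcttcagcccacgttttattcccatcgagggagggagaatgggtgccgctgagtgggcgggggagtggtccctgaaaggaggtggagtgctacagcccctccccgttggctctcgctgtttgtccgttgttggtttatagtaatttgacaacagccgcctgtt

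Some marker lists were lowest on the same round 1 ovary array as CDA and FMO5. The log2 of the summed linear signal of the 7 epithelial markers was 14.62 and 14.68 on the stomach arrays, 14.38 on the round 1 ovary array and 14.64 on the round 2 ovary array. For 8 hepatocyte markers, included because the liver is the main site of xenobiotic metabolism, it was 9.86 and 9.35 in stomach, 9.03 in ovary round 1 and 9.34 in ovary round 2. Most of this came from SERPINA1, at 8.96 in stomach round 1 and 6.95 in ovary round 1: without it the sums over 7 genes were 8.75 and 8.64 in stomach and 8.64 and 8.66 in ovary, as looked at after the values were seen. ALB, APOB, FGB and AHSG of that list lay below the signal minimum on average. The summed signal of 10 leukocyte markers was 10.59 and 10.57 in stomach and 10.32 and 10.45 in ovary. The part of these lists in the differences of CDA and FMO5 was not tested.

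**Figure D2:**
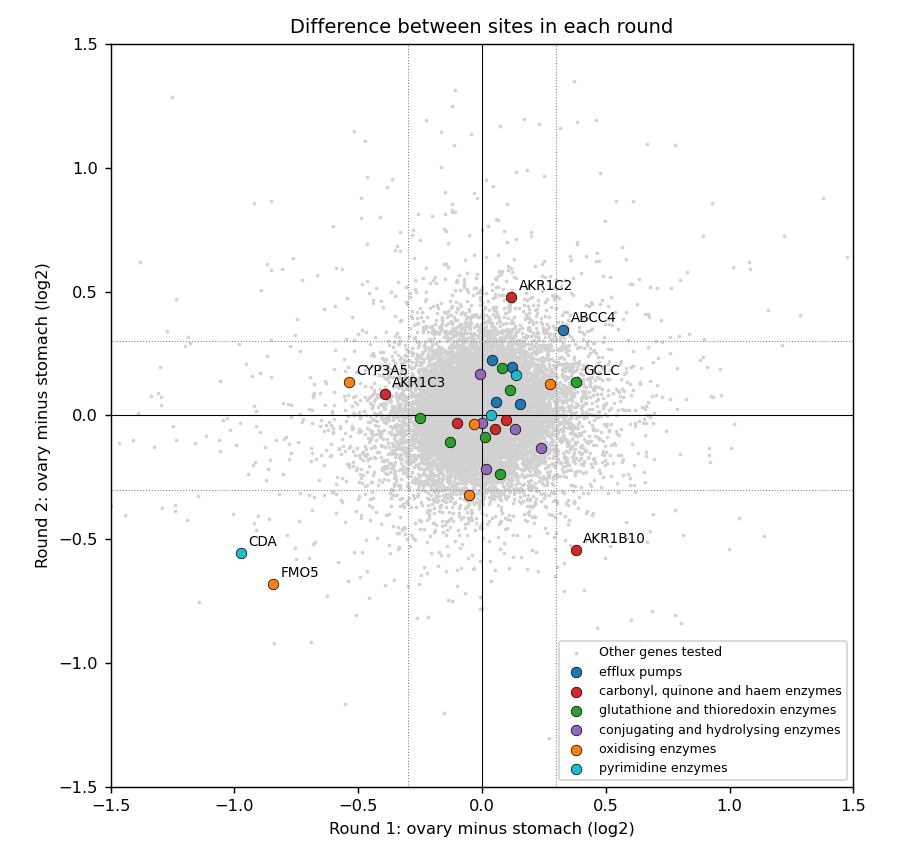
Site differences in round 1 (x axis) and round 2 (y axis), in log2 units, for 31 members coloured by role and for all genes tested in grey; dotted lines mark 0.3 and 20 genes lie outside the axes. CDA and FMO5 lie at the lower left, lower in ovary in each round, and AKR1B10 lies at the lower right, higher in ovary in round 1 and lower in round 2.

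The other pyrimidine enzymes differed less. UMPS, which converts orotate to UMP, was at 8.47 and 8.62 in stomach and at 8.61 and 8.78 in ovary, so it was higher in ovary and in round 2 in every pair, by 0.14 to 0.17. TYMP, thymidine phosphorylase, ranged from 7.46 to 7.56. DPYD, which degrades fluorouracil, stayed between 4.79 and 4.93, below the signal minimum on every array.

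Of the oxidising enzymes, CYP3A5, a cytochrome P450 of gut and liver, had the widest round difference. It was at 9.28 in stomach round 1, 9.65 in stomach round 2, 8.74 in ovary round 1 and 9.78 in ovary round 2. Both round 2 arrays lay above both round 1 arrays, and the step was 0.37 in stomach and 1.04 in ovary. The fitted round difference was 0.71 ± 0.19, or 1.63-fold (limma adjusted p = 0.287), and it was 0.44 without the round 1 ovary array. The site difference took opposite signs in the 2 rounds, -0.54 and 0.13, and the interaction was 0.33 ± 0.36 (limma adjusted p = 1).

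CYP1B1, which oxidises oestrogens and polycyclic hydrocarbons and is a target of AHR, went the other way. Its level was 9.73 and 9.39 in stomach of rounds 1 and 2, and 10.01 and 9.52 in ovary. Round 2 was lower at both sites, by 0.34 and 0.49, with a fitted -0.42 ± 0.12 (limma adjusted p = 0.289). CYP1A1, the classical AHR target, was between 5.38 and 5.66. ALDH3A1, an aldehyde dehydrogenase, varied least of the oxidising enzymes tested, from 6.87 to 6.95. CYP2S1 ranged from 10.02 to 10.34 and was lowest on the round 2 ovary array. ADH1C, a class I alcohol dehydrogenase, was at 5.09 and 4.77 in stomach and at 5.40 and 4.96 in ovary, below the minimum.

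Among the efflux pumps, which export drugs and conjugates at the cost of ATP, ABCC4 and ABCG2 were lower in round 2 and ABCC2 was higher. ABCC4, a carrier of cyclic nucleotides and nucleoside analogues, was at 8.54 and 7.94 in stomach of rounds 1 and 2 and at 8.87 and 8.29 in ovary. The steps of -0.60 and -0.58 were nearly the same at both sites, and the fitted round difference was -0.59 ± 0.17, or 1.5-fold lower (limma adjusted p = 0.289). At each round ABCC4 was higher in ovary, by 0.33 and 0.35, a fitted 0.34 ± 0.29 (limma adjusted p = 1). The fitted value ranged from 0.038 to 0.64 when each array was left out, values that also carry part of the round step. The highest value was that of ovary round 1 and the lowest that of stomach round 2.

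ABCG2, the breast cancer resistance protein, was at 8.48 in stomach round 1, 7.80 in stomach round 2, 8.52 in ovary round 1 and 8.03 in ovary round 2. Its mean was 8.50 ± 0.030 in round 1 and 7.92 ± 0.16 in round 2, a fitted -0.59 ± 0.10 (limma adjusted p = 0.287). ABCC2, which secretes glutathione and glucuronide conjugates into bile and gut lumen, had 8.89 and 9.04 in round 1 (stomach, then ovary) and 9.35 and 9.39 in round 2. For both genes the arrays of a round lay closer to each other than to those of the other round. The fitted round difference of ABCC2 was 0.41 ± 0.086 (limma adjusted p = 0.287).

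The remaining pumps varied less. ABCC1, which exports glutathione conjugates, was at 9.67 and 9.48 in stomach and 9.80 and 9.67 in ovary. ABCC3 ranged only from 9.23 to 9.31. ABCB1, the multidrug transporter P-glycoprotein, was near the floor of the array at 4.93 to 5.03. All 5 pumps tested had a mean difference above 0 in ovary, from 0.055 to 0.34, where 50.6% of all genes did. Their standard errors ran from 0.086 (ABCC3) to 0.29 (ABCG2). The direction was the same with quantile normalization and with centring on medians, which rescale the same arrays.

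The promoter of ABCC4 is shown because this pump differed in both comparisons and its window holds both motif cores. It lies on the minus strand at chr13:95301452-95301701 of GRCh38.p14 (RefSeq) and covers the 250 bases before the start. Capitals mark 1 TGACNNNGC match, read on the opposite strand, and 2 GCGTG matches, of which the first is read on the opposite strand.
ABCC4: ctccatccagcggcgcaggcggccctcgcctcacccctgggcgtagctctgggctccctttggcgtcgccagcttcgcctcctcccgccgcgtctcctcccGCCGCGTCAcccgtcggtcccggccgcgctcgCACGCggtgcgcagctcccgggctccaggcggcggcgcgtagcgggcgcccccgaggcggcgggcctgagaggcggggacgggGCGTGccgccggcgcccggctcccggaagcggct

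**Figure D3:**
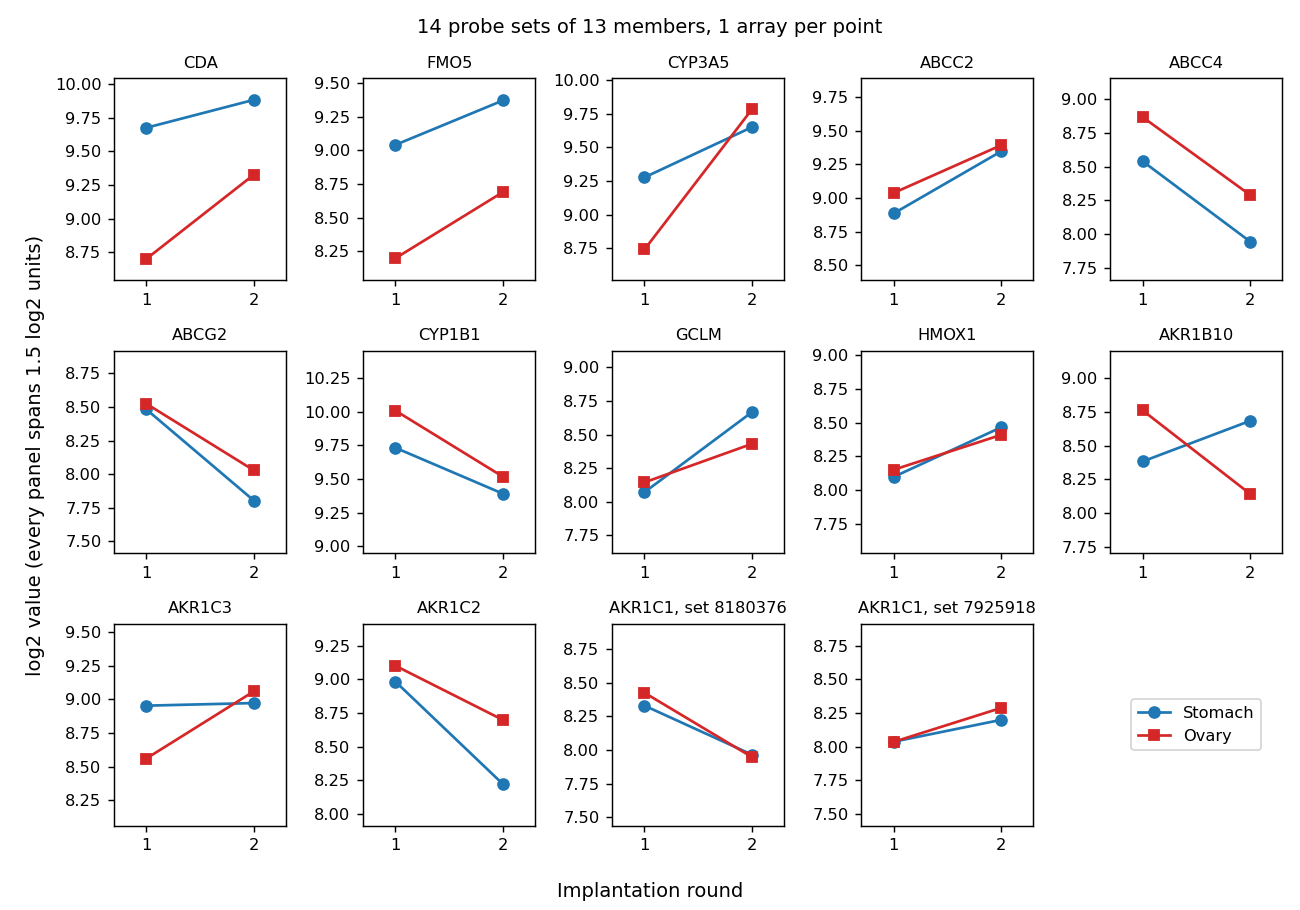
log2 values of 13 members, AKR1C1 with both of its probe sets, against implantation round, with 1 array per point; every panel spans 1.5 log2 units. The stomach and ovary lines of ABCC4 run parallel at steps of -0.60 and -0.58, those of AKR1B10 cross, and the 2 probe sets of AKR1C1 slope in opposite directions.

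Aldo-keto reductases reduce carbonyls and quinones, and the genes AKR1C1, AKR1C2 and AKR1C3 also reduce steroids. AKR1C2 was at 8.98 in stomach round 1, 8.22 in stomach round 2, 9.10 in ovary round 1 and 8.70 in ovary round 2. Both round 2 arrays were below both round 1 arrays, with a fitted difference of -0.58 ± 0.18 (limma adjusted p = 0.296) that was -0.34 without the round 2 stomach array. AKR1C3 had 8.95 and 8.97 in stomach and 8.56 and 9.06 in ovary, so a single array, that of ovary round 1, stood below the others. Its interaction was 0.24 ± 0.17 (limma adjusted p = 1).

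AKR1C1 had 2 probe sets, and they disagreed between rounds. The one with the higher mean, 8180376, was at 8.33 and 7.97 in stomach of rounds 1 and 2 and at 8.43 and 7.95 in ovary, a fitted round difference of -0.42 ± 0.075 (limma adjusted p = 0.287). The other, 7925918, was at 8.04 and 8.20 in stomach and at 8.04 and 8.29 in ovary, a difference of 0.21 (limma adjusted p = 0.321). The direction for AKR1C1 therefore depends on the probe set, and the AKR1C1 entry among the 5 members lower in round 2 rests on the first. AKR1C1 and AKR1C2 are near-identical copies, and a probe set of either may read both.

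How alike these genes are upstream can be seen in the 250 bases before their starts, shown for that reason. These bases lie before the transcripts, so they cannot tell what a probe set reads. No transcript or probe sequences were compared. The sequences are RefSeq's on GRCh38.p14: AKR1C1 on the plus strand at chr10:4963165-4963414, AKR1C2 on the minus strand at chr10:5003858-5004107 and AKR1C3 on the plus strand at chr10:5048531-5048780. Capitals mark bases that differ from AKR1C1, or have no partner in it, in a global alignment. AKR1C1 and AKR1C2 share an unbroken run of 245 bases, while AKR1C3 matches AKR1C1 at 76.8% of 241 aligned bases. No TGACNNNGC or GCGTG match was found in any of these 3 stretches.
AKR1C1: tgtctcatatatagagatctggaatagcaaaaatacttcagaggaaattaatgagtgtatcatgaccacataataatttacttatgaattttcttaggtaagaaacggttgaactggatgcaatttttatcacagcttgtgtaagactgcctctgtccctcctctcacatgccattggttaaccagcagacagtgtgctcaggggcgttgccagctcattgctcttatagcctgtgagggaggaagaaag
AKR1C2: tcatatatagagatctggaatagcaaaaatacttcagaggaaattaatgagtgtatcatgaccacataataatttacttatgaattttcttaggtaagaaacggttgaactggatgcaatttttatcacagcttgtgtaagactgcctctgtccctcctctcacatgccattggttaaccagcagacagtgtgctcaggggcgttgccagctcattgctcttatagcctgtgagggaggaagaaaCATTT
AKR1C3: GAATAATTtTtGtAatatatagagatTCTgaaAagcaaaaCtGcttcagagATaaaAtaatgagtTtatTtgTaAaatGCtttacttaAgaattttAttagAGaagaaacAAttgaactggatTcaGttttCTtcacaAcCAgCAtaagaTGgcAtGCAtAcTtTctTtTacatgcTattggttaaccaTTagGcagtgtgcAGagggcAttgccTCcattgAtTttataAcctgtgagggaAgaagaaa

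AKR1B10, a retinal and aldehyde reductase, was the member with the largest interaction of site and round. It was at 8.38 in stomach round 1, 8.68 in stomach round 2, 8.76 in ovary round 1 and 8.14 in ovary round 2. Between rounds it was 0.30 higher in stomach and 0.62 lower in ovary, the only member at least 0.3 apart in opposite directions (0.674% of all genes tested). The interaction was -0.46 ± 0.12 (limma adjusted p = 1). CDA had the remaining interaction value among the 4 largest, 0.21 ± 0.42 (limma adjusted p = 1).

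NQO1, the quinone reductase often used as a readout of NRF2, differed little, at 11.77 and 11.82 in stomach and 11.67 and 11.78 in ovary. HMOX1, which opens the haem ring, had 8.10 and 8.47 in stomach of rounds 1 and 2 and 8.15 and 8.41 in ovary. Its round 2 arrays lay above its round 1 arrays, by 0.37 and 0.26, without a site difference (8.28 ± 0.26 in stomach and 8.28 ± 0.18 in ovary).

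Of the 7 glutathione and thioredoxin enzymes, 6 were higher in round 2 on average, but the count depends on scaling: it was 4 with quantile normalization and 7 with centring on medians. GCLM, the modifier subunit of the enzyme that makes gamma-glutamylcysteine, was at 8.07 and 8.67 in stomach and at 8.14 and 8.43 in ovary, higher in round 2 by 0.60 and 0.29. TXNRD1, thioredoxin reductase, was at 10.46 and 10.67 in stomach and at 10.54 and 10.86 in ovary, a step of 0.21 and 0.32. In both genes the arrays of the 2 rounds did not overlap, which held for 49.0% of all genes tested.

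GCLC, the catalytic partner of GCLM, did not share this pattern between rounds. It was at 9.48 and 9.61 in stomach and at 9.87 and 9.74 in ovary, so both ovary arrays lay above both stomach arrays, by 0.38 in round 1 and 0.13 in round 2. SRXN1, which repairs over-oxidised peroxiredoxins, was also separated by site with almost no spread within one, at 9.04 ± 0.0054 in stomach and 9.15 ± 0.00070 in ovary. TXN, thioredoxin itself, was the reverse, at 10.80 ± 0.0014 in stomach and 10.69 ± 0.016 in ovary. Arrays of the 2 sites did not overlap in 8 of 31 members, against 24.6% of all genes tested. SRXN1 and TXN were fitted after their values were seen. The fitted site differences were 0.11 ± 0.085 for SRXN1 and -0.12 ± 0.086 for TXN (limma adjusted p = 1 for both).

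GSR, which regenerates reduced glutathione, ranged from 11.77 to 11.94 and was higher in round 2 by 0.17 in stomach and 0.077 in ovary. GPX2, the gastrointestinal glutathione peroxidase, was lowest on the round 1 ovary array, at 11.17 against 11.36 to 11.42 on the others. They spanned 0.17 and 0.25 log2 units.

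The conjugating and hydrolysing enzymes were the steadiest group, with a largest range of 0.30 among the 5 tested. GSTP1, a glutathione transferase, was at 12.19 and 12.36 in stomach and 12.32 and 12.31 in ovary. MGST1, a membrane-bound transferase, was highest on the round 1 ovary array (11.25) and lowest on the round 2 ovary array (10.94). GSTA4, which conjugates lipid peroxidation products, was at 9.34 on both round 1 arrays and at 9.16 and 9.13 on the round 2 arrays. EPHX1, microsomal epoxide hydrolase, ranged from 8.43 to 8.65, and SULT1A1, a phenol sulfotransferase whose close copies its probe set may also read, from 6.74 to 6.91. GSTA1 was at 5.49 to 5.66, below the minimum on average.

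**Figure D4:**
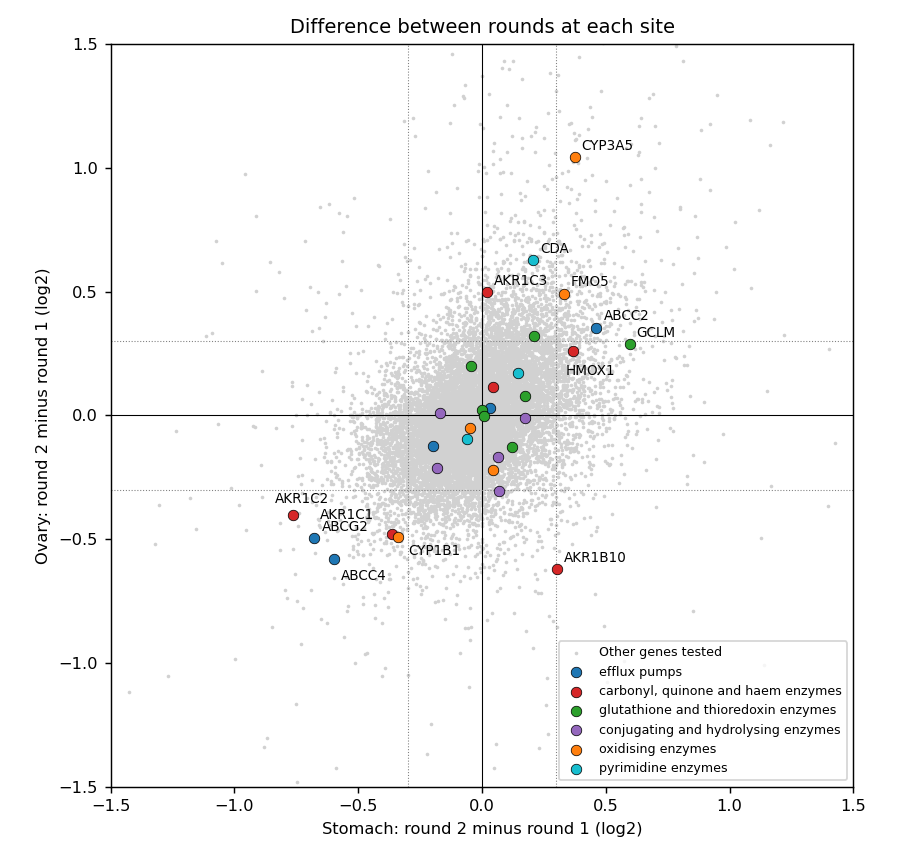
Round differences in stomach (x axis) and in ovary (y axis), in log2 units, for 31 members coloured by role and all genes tested in grey; dotted lines mark 0.3 and 34 genes lie outside the axes. ABCC4, ABCG2, AKR1C1, AKR1C2 and CYP1B1 lie at the lower left, and CYP3A5, FMO5 and ABCC2 at the upper right.

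Promoter windows, from 250 bases before to 50 after a start, were found in the RefSeq table for 28 of the 37 members. The core TGACNNNGC, read on both strands, was in the window of 9 of these genes (32.1%) against 16.1% of 27305 genes, or in 10 of 41 windows (24.4%) against 13.3% of 35116. GCGTG was in 12 of 28 (42.9%) against 40.6%. A match is a run of letters and not a bound site. For the 6 members with a TGACNNNGC match whose surrounding 41 bases lie wholly before a start, that stretch is shown in gene orientation with the match in capitals, read on either strand, so that the shared core can be read beside the values. They lie on GRCh38.p14 at chr1:93909440-93909480 (GCLM, minus strand), chr14:64942843-64942883 (GPX2, minus), chr11:67583730-67583770 (GSTP1, plus), chr1:225825260-225825300 (EPHX1, plus) and chr12:104215664-104215704 and chr12:104286914-104286954 (TXNRD1, 2 starts, plus). ABCC4 has the span chr13:95301576-95301616 on the minus strand.
GCLM: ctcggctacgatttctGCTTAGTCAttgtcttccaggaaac
GPX2: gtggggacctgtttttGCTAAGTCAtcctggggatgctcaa
GSTP1: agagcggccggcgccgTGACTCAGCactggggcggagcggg
EPHX1: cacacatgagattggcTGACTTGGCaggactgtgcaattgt
TXNRD1, upstream start: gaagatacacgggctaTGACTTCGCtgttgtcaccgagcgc
TXNRD1, downstream start: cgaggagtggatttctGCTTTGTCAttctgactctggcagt
ABCC4: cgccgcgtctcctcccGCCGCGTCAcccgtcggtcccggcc

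These 6 members did not share a direction between rounds. GCLM and TXNRD1 were higher in round 2 at both sites and ABCC4 was lower at both, by the values above. GPX2 (-0.043 in stomach and 0.20 in ovary), GSTP1 (0.18 and -0.012) and EPHX1 (0.066 and -0.17) differed in sign between sites.

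Other genes of these pathways, 137 in 7 lists, gave 88 genes above the minimum, and limma called 0 of them in either comparison, while 4 between sites and 10 between rounds had an unadjusted p under 0.05, where 2.6% and 15.0% of all genes did. Of 9 tested genes for NRF2 and its regulators, 8 were higher in round 2 (9 with centring on medians; 45.4% of all genes), and 6 of 9 higher in ovary (50.6%). NFE2L2, which encodes NRF2, was at 10.02 and 10.11 in stomach and at 10.11 and 10.24 in ovary. The largest differences were those of RBX1, a ubiquitin ligase subunit (0.32 ± 0.11 between rounds), the NRF2 competitor BACH1 (0.28 ± 0.11 between rounds and 0.16 ± 0.16 between sites) and MAFG, a partner of NRF2 (0.24 ± 0.11 between sites). The site value of BACH1 was -0.029 without the round 2 ovary array, and that of MAFG was 0.16 with the mean of all its probe sets. Among 15 other NRF2 targets, 6 were higher in round 2 and 8 higher in ovary, or 5 and 6 with quantile normalization. SLC7A11, which imports cystine, was 0.48 ± 0.096 higher in ovary, ABHD4 differed by -0.29 ± 0.11 between sites, and GSS (-0.26 ± 0.13) and TKT (-0.18 ± 0.069) were lower in round 2.

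Of 6 xenobiotic receptors and partners, 3 were higher in round 2 and 1 higher in ovary. That one was AHR, at 9.99 and 10.17 in stomach and 10.23 and 10.43 in ovary (0.25 ± 0.13). TIPARP, an AHR target that feeds back on it, was higher in round 2 by 0.43 ± 0.11 while CYP1B1 was lower. NR1I3 differed by -0.26 ± 0.14 between rounds, with a step of -0.53 in stomach and 0.0 in ovary. It lay above the signal minimum of 5.64 only in stomach round 1, at 5.95. POR, the P450 reductase, differed by -0.16 ± 0.11 between sites. None of these passed limma's test across all genes (smallest adjusted p in the list 0.287).

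Other phase I enzymes were lower in round 2 in 16 of 19 and other conjugating enzymes in 10 of 14 (11 of 14 with quantile normalization and 9 with centring on medians), where 45.4% of all genes were higher. Median round differences were -0.12 in both lists. In stomach and ovary they were -0.064 and -0.10 for the first and -0.013 and -0.13 for the second. ALDH1A1, which oxidises retinal, was at 9.68 and 9.63 in stomach and at 10.20 and 9.10 in ovary, a fitted round difference of -0.58 ± 0.25 that lay in the ovary lineage. The glutathione transferases GSTM3 (-0.45 ± 0.21) and GSTM2 (-0.42 ± 0.13) and the aldehyde dehydrogenase ALDH3B1 (-0.29 ± 0.13) were also lower in round 2, mainly on the ovary arrays for GSTM3 (-0.044 in stomach and -0.86 in ovary) and ALDH3B1 (-0.056 and -0.53). Between sites, CYP2B6 differed by 0.57 ± 0.22, with 0.96 in round 1 and 0.19 in round 2, and by 0.29 without the round 1 ovary array. CYP4F12 differed by -0.33 ± 0.14, and by -0.18 without the round 2 stomach array. SULT2B1 (-0.26 ± 0.22) and MGST3 (-0.23 ± 0.19) were lower in ovary on average. SULT2B1 changed sign without the round 1 ovary array (0.037) and MGST3 without the round 2 ovary array (0.012).

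Other drug transporters were higher in ovary in 8 of 11 and lower in round 2 in 7 of 11. SLC28A2, a concentrative nucleoside carrier, was at 8.44 and 8.16 in stomach and at 7.51 and 7.96 in ovary, with a site difference of -0.56 ± 0.19, on the same side as CDA. The equilibrative nucleoside carriers SLC29A1 (-0.23 ± 0.13) and SLC29A2 (-0.19 ± 0.15) were lower in round 2, the second at 0.0079 without the round 1 ovary array. SLC29A1 differed by 0.18 ± 0.15 between sites, and by 0.0018 without the round 2 stomach array; its round difference was then -0.070. Of 14 other pyrimidine enzymes, 8 were lower in round 2 (10 with quantile normalization) and 8 higher in ovary. CAD, which starts pyrimidine synthesis, was at 10.11 and 9.72 in stomach and at 10.28 and 9.81 in ovary (-0.44 ± 0.093 between rounds), and DHODH, a later step of that route, was lower by a fitted -0.31 ± 0.091. RRM1, a ribonucleotide reductase subunit, differed by 0.21 ± 0.13 between sites, with 0.40 in round 1 and 0.019 in round 2. TK2 differed by -0.14 ± 0.13, with opposite signs in the rounds (-0.36 and 0.078).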

How the data were processed

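RNA from 4 samples was hybridised to Affymetrix arrays, 1 array for each site and round. Values are log2 expression per probe set, in 1 table deposited by the submitters. Per the submitters' processing notes it was made with Affymetrix Expression Console; how the probe signals were corrected, normalized and summarized is not stated. That values are log2 was inferred from their range, and array medians lie between 6.80 and 6.84. A shift shared by all transcripts could be lost if arrays were scaled to each other. Precision is limited by having 4 arrays.

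Of 33297 rows, 19460 name 1 gene in GEO's platform annotation, 1754 several and 12083 are unnamed here. Symbols were updated through gene identifiers to RefSeq's GRCh38.p14 table (19429 found, 31 not). A linear model per gene was run on R 4.3.3 with limma 3.58.1 (lmFit and eBayes, two-sided, Benjamini-Hochberg over 14547 genes) on all 4 arrays, with the interaction as the difference of the differences divided by 2. On simulated data with 200 changed genes, the site fit recovered 9.3% of 2-fold and 94.8% of 4-fold changes at an adjusted p under 0.05. A gene that was not called may therefore still differ by 2-fold or more. Over all genes tested, fitted differences ran from -1.48 to 1.97 between sites and from -1.27 to 2.17 between rounds, and none was called. The members and lists were chosen with earlier results of these data known. Fitted differences are printed for members with both within-pair differences of one sign and at least 0.3, for the 4 largest interactions, and for up to 2 genes per pathway list and comparison; fits of SRXN1 and TXN were added after their values were seen. The replicate number is the round, shared by both sites; deviations from site means correlated at 0.411 between arrays of the same round (2 pairs), which does not establish pairing. Alternatives covered the signal minimum, scaling, probe set choice, prior trend, threshold, replicate block and single arrays left out. matplotlib 3.10.9 drew the figures.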

Additional observations from a re-analysis of the deposited data

How the results depend on the processing

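limma called 0 genes in every comparison under every alternative run, with 288 to 498 (sites) and 1688 to 2481 (rounds) genes at an unadjusted p under 0.05 across the settings of minimum and scaling. With the replicate block, 0 were called, the smallest adjusted p was 0.122 (sites) and 0.133 (rounds), and 916 and 2358 genes had an unadjusted p under 0.05; it changed no call. The members' median round difference was -0.031 with quantile normalization, and -0.032 to 0.064 when each array was left out, so it has no stable sign. Their median site difference ran from -0.011 to 0.040 and the number higher in ovary from 15 to 16, or 15 to 18 for round 2, without each array. AKR1C1 reversed to 0.21 with its other probe set, an alternative chosen after seeing the data. Leaving out arrays gave -0.010 to 0.83 for the round difference of FMO5 and -0.38 to 0.0079 for SLC29A2. For the site difference it gave -0.55 to 0.037 for SULT2B1, -0.029 to 0.35 for BACH1 and -0.48 to 0.012 for MGST3. Each such fit leaves site and round unbalanced, so a round difference also carries part of the site difference, and the reverse. Any other cause was not tested. CDA (-1.08 to -0.45) and FMO5 (-1.01 to -0.52) stayed lower in ovary. The interaction was not fitted without single arrays, since 3 arrays cannot estimate it, and CYP4F12, NR1I3 and GSTM2 have no value with the minimum at the 50th percentile. Signal near the array's floor limits ABCB1, GSTA1, CYP1A1, ADH1C and DPYD, and also NR1I3.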

Other observations

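Probe sets that name several related genes were not used above, and no single gene can be read from them. One of them covers 9 UGT1A genes, which attach glucuronic acid to bilirubin and drugs. It was at 8.56 in stomach round 1, 8.30 in stomach round 2, 9.02 in ovary round 1 and 8.34 in ovary round 2, so the round 1 ovary array stood above the others and round 2 was lower at both sites, by 0.25 and 0.68. A probe set shared by 5 UGT2B genes, which conjugate steroids and bile acids, was at 5.57 and 5.98 in stomach and at 4.81 and 5.06 in ovary. Both ovary arrays lay below both stomach arrays, but every value except that of stomach round 2 was under the signal minimum of 5.64. The probe set of CYP2D6 with an overlapping locus was at 7.09 and 7.20 in stomach and at 7.37 and 6.85 in ovary. The probe set naming CYP2D6 alone did not share this pattern, at 7.41 and 7.21 in stomach and 7.41 and 7.41 in ovary. The shared rows were picked after their values were seen and were not tested.

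SERPINA1, an antiprotease made by liver and also by gut epithelium, spanned the widest range of the marker genes, at 8.96 in stomach round 1 and 6.95 in ovary round 1, with the round 2 arrays 0.072 apart. It was lowest on the same array as CDA, FMO5 and CYP3A5. It too was picked after its value was seen.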
